A study of Mus musculus with 12 samples.

Results

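The 49 lysosome and autophagy genes described here were chosen by symbol from the 20587 genes of an RNA-Seq table. The cells were 4T1, a line from a mouse mammary carcinoma. They comprise 6 regulators of lysosome formation and nutrient sensing, 7 proteins of the lysosomal membrane, 7 proteases, 8 glycosidases, 5 proteins of lipid breakdown and transport, 5 subunits of the proton pump, 4 proteins that start the autophagosome, 3 Atg8 family proteins and 4 autophagy receptors. There were 4 groups of 3 libraries, all 4T1 cells taken 24 h after treatment. Ctr cells were not irradiated and grew with serine and glycine, and -SG cells grew without both amino acids and were not irradiated. IR cells received 5 Gy of X-rays with serine and glycine, and IR -SG cells received 5 Gy without them. 4T1 cells are routinely kept in RPMI, and the study's methods give its experimental media as an MEM base with glutamine and dialysed serum, to which serine and glycine were added back for the cells that had them. The libraries came from one experiment on one cell line, and libraries are numbered as in the labels, 1 to 3 in Ctr and IR and 4 to 6 in -SG and IR -SG. P-values thus reflect only how much cultures within groups differed. This spread was estimated over all 4 groups together and with the help of other genes. A library can therefore affect comparisons that do not include its group.

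The lysosome is an acidic organelle in which hydrolases break down proteins, sugars and lipids, and autophagy delivers parts of the cytoplasm to it inside a vesicle, the autophagosome. Transcription factors of the MiT/TFE family, TFEB and TFE3 among them, bind a short palindrome in the promoters of many lysosome and autophagy genes, the CLEAR element, which is built around the E-box CACGTG. When amino acids are plentiful, the kinase complex mTORC1 is recruited to the lysosome by Rag GTPases and holds TFEB in the cytoplasm, and when they are scarce TFEB enters the nucleus.

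Because these factors act on a known sequence, the promoters of the members are shown first, with the motif letters in capitals. RefSeq promoters (GRCm38.p6), which run from 250 bases before to 50 bases after the gene start, matched 42 of the 49 members. The E-box CACGTG, which reads the same on both strands, lay in 14 of these 42 promoters (33.3%) and in 8.09% of the 27025 genes with a promoter. The longer palindrome TCACGTGA, which contains the E-box, lay in 7 (16.7%), against 1.12% of all genes. A gene was counted if any of its listed starts held the motif. A different motif, TGATGCAA or TTGCATCA on the other strand, as bound by ATF4 with its partners, lay in 0 of the 42 promoters and in 1.03% of all genes. With so rare a motif, 0 of 42 is a likely count, and no lack of it can be read from this. These are matches of letters, and binding was not measured. The CLEAR element is known from promoters of lysosome genes, so a larger share among the members is no independent result. The 27025 genes also include genes that were not tested for expression here. The 7 members with the longer palindrome are printed here as windows of 30 bases, 5′ to 3′ along the gene, since the text returns to their values.

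Mcoln1, chr8:3500462-3500491, plus strand: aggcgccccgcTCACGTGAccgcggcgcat
Cln3, chr7:126583340-126583369, minus strand: cacgggtactgTCACGTGAcccccaacctg
Ctsa, chr2:164833749-164833778, plus strand: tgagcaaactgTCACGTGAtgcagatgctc
Ctsd, chr7:142387908-142387937, minus strand: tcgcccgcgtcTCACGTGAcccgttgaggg
Gla, chrX:134601215-134601244, minus strand: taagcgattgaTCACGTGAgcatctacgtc
Atp6v0d1, chr8:105566050-105566079, minus strand: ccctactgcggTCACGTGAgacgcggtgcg
Atp6v1a, chr16:44139373-44139402, minus strand: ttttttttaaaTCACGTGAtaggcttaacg

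Lamp1, which encodes one of the most abundant proteins of the lysosomal membrane, held 4 E-boxes within 61 bases of its start and no longer palindrome. The 250 bases before its start are printed for this run of E-boxes, in capitals.

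Lamp1, chr8:13158911-13159160, plus strand: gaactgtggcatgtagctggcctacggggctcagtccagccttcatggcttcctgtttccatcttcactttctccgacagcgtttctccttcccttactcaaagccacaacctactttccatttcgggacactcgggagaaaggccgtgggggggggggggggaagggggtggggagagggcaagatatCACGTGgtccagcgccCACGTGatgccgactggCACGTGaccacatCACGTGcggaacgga

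The other members with an E-box were Fnip1, Rragc, Ctsl, Glb1, Naglu and Gaa. The responses of the members with these motifs are given next, and the part of the motifs in them was not tested. Of the 7 members with the longer palindrome, Mcoln1, Ctsa, Ctsd, Gla and Atp6v0d1 rose in all 3 treated groups. Their log2 differences between -SG and Ctr were 0.39, 0.54, 1.02, 0.26 and 0.92. Atp6v1a rose in IR and IR -SG cells (0.28 and 0.24) and was not past the threshold in -SG cells (0.05). Cln3 was not past the threshold in any comparison, with differences between -0.01 and 0.07 in the 5 comparisons between groups. Of the members with an E-box but not the longer palindrome, Lamp1, Fnip1, Rragc, Glb1, Naglu and Gaa rose in -SG cells, and Ctsl fell. Sqstm1 and Gpnmb, which had the largest differences from Ctr, had no E-box in this window.

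Reads in genes numbered 12540160 to 20066659 per library, and 100% of values could be turned back into whole reads (tolerance 0.001). A value is a normalized count, that is, reads divided by 1 size factor per library. Of the 49 members, 47 had 10 or more normalized counts in 3 or more libraries and were tested among 11663 protein-coding genes. The 2 others, Rragd and Ctss, are described by their values. All 10 mammary epithelial markers were present, with sums of 62320 to 62550 in Ctr and 72690 to 81960 in the groups without serine and glycine. Of 10 macrophage and leukocyte markers 1 to 3 reached a mean of 10 in a group, and the sum was 156 to 231 in Ctr, 109 to 144 in -SG, 259 to 290 in IR and 170 to 182 in IR -SG, most of it from Cd14. Library -SG 6 stood apart, with a chi-square per gene of 7.53 and 11.9 against the other -SG libraries where other pairs of replicates gave 1.49 to 3.26. Its log2 differences from -SG 4 and -SG 5 rose with the GC content of the gene (rank correlations of 0.41 and 0.55). Other pairs gave -0.31 to 0.36. Ctr 1 and Ctr 3 held more of the collagen gene Col3a1 (90.8 and 125 normalized counts, against 5.31 in Ctr 2) and of Lyz2, a macrophage lysozyme (45.4 and 83.6, against 2.13). Counts are therefore also given without -SG 6, and median differences without Ctr 1 and Ctr 3 together.

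Most members were higher in each of the 3 treated groups than in Ctr. The members were chosen with earlier results of these data known, so their share of rises is no test of the pathway. In -SG cells 37 of 47 members rose and 4 fell (limma, adjusted p under 0.05), where 30% of all tested genes rose and 28.6% fell. The median log2 difference of the members was 0.39, against 0.0064 over all tested genes. In IR cells 39 rose and 1 fell, where 28.9% of all genes rose and 24.9% fell, with medians of 0.29 and 0.0028. In IR -SG cells 41 rose and 3 fell, where 37.2% rose and 32.5% fell, with medians of 0.60 and 0.027. These 3 comparisons share the Ctr libraries. Without -SG 6, 36 members rose and 5 fell in -SG cells, where 61.8% of all tested genes were past the threshold. Leaving out Ctr 1 and Ctr 3 together, a choice made after the values were seen, left only Ctr 2. Median differences for that setting are given at the end.

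**Figure D1:**
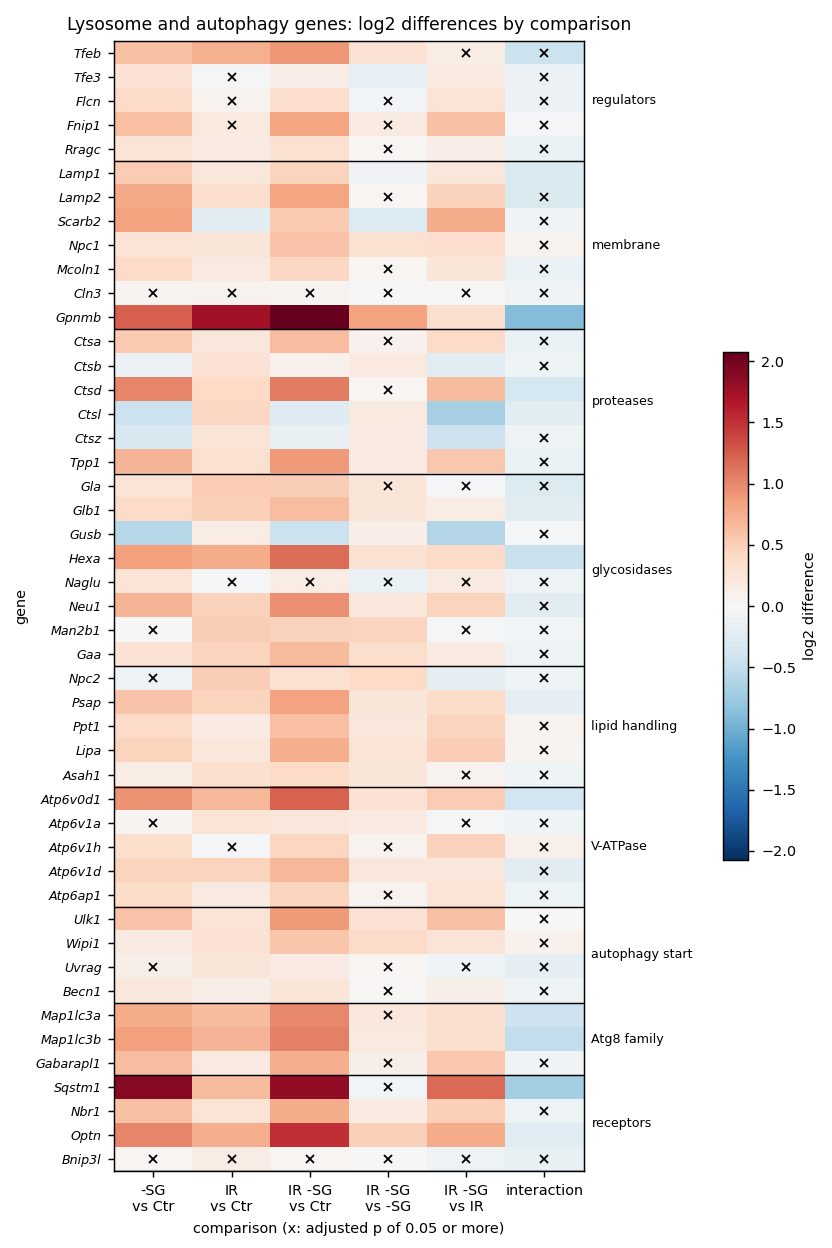
Log2 differences of the 47 tested members (rows, grouped by role) in the 5 comparisons between groups and the interaction (columns), from limma on log2(normalized count + 1), with crosses where the adjusted p was 0.05 or more. Red stands for higher and blue for lower, and in the first 3 columns 37, 39 and 41 members rose. The interaction column, the radiation difference in starved cells less that in fed cells, has 12 members past the threshold, all of them below 0.

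Among the regulators, all 5 that were tested rose in -SG cells, and Tfeb and Rragc also rose in IR cells. Tfeb (ENSMUSG00000023990, chromosome 17 of GRCm38, 47737030 to 47792419), which encodes the transcription factor itself, measured 101, 80.8 and 78.3 normalized counts in Ctr and 130.5, 118 and 147 in -SG libraries. It measured 134, 152 and 149 in IR and 159, 151 and 176 in IR -SG libraries. All 9 treated libraries lay above the 3 Ctr libraries, and Tfeb was 1 of the least expressed members, at 15.3 normalized counts per kb of exon in Ctr. Its log2 differences from Ctr were 0.61 (SE 0.12, adjusted p = 0.000278) in -SG, 0.74 (SE 0.12, adjusted p = 5.37e-05) in IR and 0.90 (SE 0.12, adjusted p = 3.12e-06) in IR -SG cells. Tfe3, its relative, was more abundant (124 per kb) and rose in -SG cells by 0.30. In IR cells Tfe3 was not past the threshold (-0.05 (SE 0.05, adjusted p = 0.457)). Its rise in IR -SG cells was small (0.13 (SE 0.05, adjusted p = 0.0367)) and was lost in 9 of the alternatives, for instance without Ctr 2 (adjusted p = 0.107).

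Flcn and Fnip1 encode folliculin and its partner, which switch the Rag GTPases and so bear on whether TFEB is held in the cytoplasm. Flcn measured 763, 715 and 727 normalized counts in Ctr, 990.4, 948 and 969 in -SG, 763, 763 and 784 in IR and 945, 957 and 905 in IR -SG libraries. The 6 libraries without serine and glycine all lay above the 6 with them. Fnip1 rose by 0.63 in -SG cells (SE 0.10) and by 0.81 in IR -SG cells (SE 0.10), and its radiation difference did not pass the threshold in either medium (0.21 (SE 0.10, adjusted p = 0.075) with serine and glycine), though with serine and glycine it did so in 3 of 26 alternatives, for instance without -SG 6 (adjusted p = 0.00301), and without them when -SG 4 was left out (adjusted p = 0.0482). Rragc, a Rag GTPase, rose by 0.27, 0.18 and 0.32 in -SG, IR and IR -SG cells. Rragd, its close relative, was below the filter, with 1.78, 1.06 and 2.64 normalized counts in Ctr and 7.19, 3.96 and 6.89 in IR -SG libraries. These are only a few reads per library.

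Of the 7 members of the lysosomal membrane, 6 rose in -SG cells, 5 in IR cells, where 1 fell, and 6 in IR -SG cells. Lamp1 (ENSMUSG00000031447, chromosome 8 of GRCm38, 13159161 to 13175338) was the member with the highest level per length in Ctr (4205 normalized counts per kb of exon). It measured 11210.3, 11160.2 and 11372 normalized counts in Ctr, 15960.3, 16628 and 16277 in -SG, 13353, 13178 and 12997 in IR and 15486, 15103 and 15781 in IR -SG libraries. The 4 groups did not overlap, and the order was Ctr, IR, IR -SG, -SG. The differences from Ctr were 0.53 (SE 0.03) in -SG, 0.23 (SE 0.03) in IR and 0.46 (SE 0.03) in IR -SG cells, with adjusted p = 2.03e-10, 8.02e-06 and 7.32e-10. Its fall between -SG and IR -SG (-0.08 (SE 0.03, adjusted p = 0.0478)) was lost in 17 of the alternatives. Lamp2, which also serves chaperone-mediated autophagy, rose by 0.78 in -SG and by 0.82 in IR -SG cells. In -SG 6 it measured less than in the other -SG libraries (3630.3, 3782 and 2852), still above every Ctr library (1900.1, 2062 and 1974). Lamp2 has a GC content of 38.7%, and the part of GC content in this lower value was not tested.

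Gpnmb (ENSMUSG00000029816, chromosome 6 of GRCm38, 49036546 to 49070929), a membrane glycoprotein of melanosomes and of macrophage lysosomes, had the largest radiation difference of the members. It measured 117, 87.2 and 88.0 normalized counts in Ctr, 205, 236 and 244 in -SG, 321, 320.4 and 327 in IR and 422, 414 and 389.5 in IR -SG libraries. The 4 groups did not overlap, and every step in the order Ctr, -SG, IR, IR -SG was upward. Against Ctr it was 2.35-fold in -SG (1.23 (SE 0.10, adjusted p = 2.94e-08)), 3.33-fold in IR (1.74 (SE 0.10, adjusted p = 1.14e-09)) and 4.20-fold in IR -SG cells (2.07 (SE 0.10, adjusted p = 2.71e-11)). The summed macrophage and leukocyte markers were highest in IR, and lower in IR -SG, where Gpnmb was highest. Of these markers, Cd14 measured 127, 136 and 124 normalized counts in Ctr, 223, 209.9 and 198 in IR and 160.0, 143 and 162 in IR -SG libraries, and Mrc1 9.79, 8.50 and 7.04, then 25.2, 28.1 and 19.5, then 7.19, 8.92 and 3.93. Csf1r measured 2.67, 5.31 and 6.16 in Ctr, 31.5, 36.5 and 28.2 in IR and 14.4, 15.9 and 10.8 in IR -SG libraries. Ptprc, Cx3cr1, Fcgr1 and Tyrobp did not exceed 6.30, 2.13, 5.42 and 6.16 in any library, and Lyz2 was highest in Ctr. Adgre1 and Itgam, the other markers of this list, had no values. Whether the reads of these markers came from other cells, and their part in Gpnmb, was not tested. Mcoln1, a calcium channel of the lysosome, rose by 0.39, 0.18 and 0.43 in -SG, IR and IR -SG cells, and Npc1, which exports cholesterol from the lysosome, by 0.28, 0.25 and 0.60. The IR call of Mcoln1 was lost without Ctr 2 (adjusted p = 0.0686) or IR 2 (adjusted p = 0.0699). Exons of Cln3, Npc1, Ppt1 and Map1lc3b share 7.65, 4.52, 3.51 and 0.772% of their bases with more abundant neighbours on the other strand, Apobr, Rmc1, Cap1 and Zcchc14, and those of Becn1 share 43.9% with Cntd1, which had few reads. Whether counting used the strand is not given in the sources used here.

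**Figure D2:**
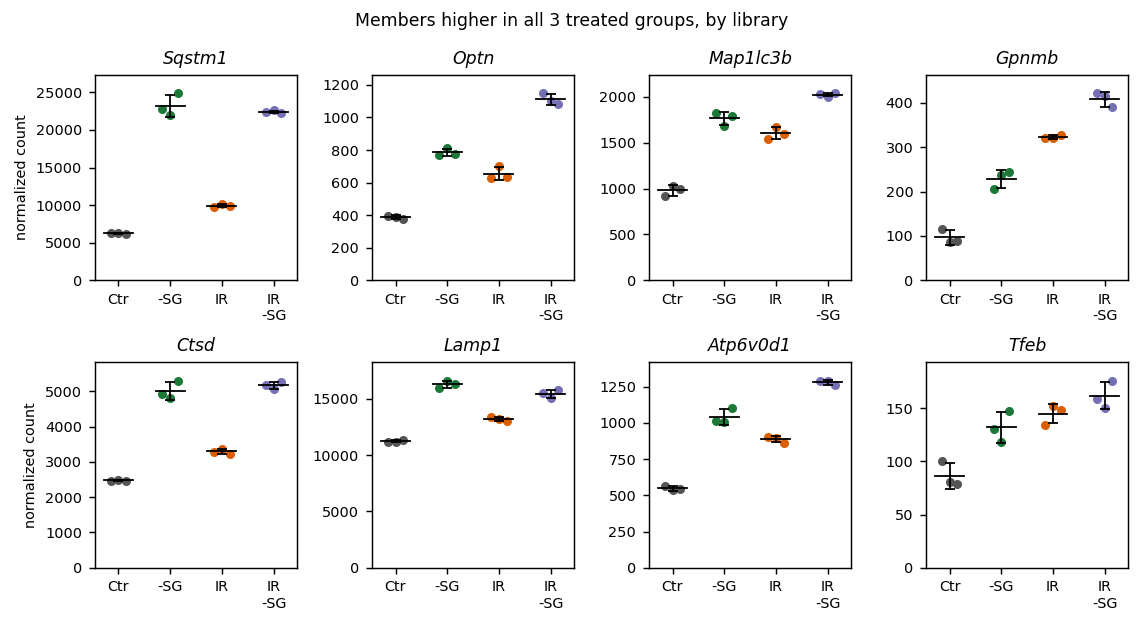
Normalized counts by library (points) of 8 members that were higher in each treated group than in Ctr, with group means (lines) and SD (bars, n = 3), on linear axes from 0. Sqstm1 and Ctsd lay at like levels in the -SG and IR -SG groups, whereas Optn, Gpnmb and Atp6v0d1 were highest in IR -SG.

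The 6 tested proteases split. Ctsd, Ctsa and Tpp1 rose in all 3 treated groups, while Ctsb, Ctsl and Ctsz fell in -SG cells and rose in IR cells. Ctsd (ENSMUSG00000007891, chromosome 7 of GRCm38, 142375911 to 142388038), the main aspartic protease of the lysosome, measured 2462, 2499 and 2464 normalized counts in Ctr, 4923, 4797 and 5306 in -SG, 3294, 3357 and 3234 in IR and 5187, 5062 and 5262 in IR -SG libraries. The -SG and IR -SG libraries overlapped each other and lay above all others. It was 2.02-fold in -SG (1.02 (SE 0.04, adjusted p = 1.78e-12)), 1.33-fold in IR (0.41 (SE 0.04, adjusted p = 1.94e-07)) and 2.09-fold in IR -SG cells (1.06 (SE 0.04, adjusted p = 6.37e-13)), each against Ctr. Ctsa, a carboxypeptidase that also protects Neu1 and Glb1 in a complex, rose by 0.54, 0.23 and 0.63 in the same order. Tpp1, a tripeptidyl peptidase, rose by 0.70, 0.31 and 0.88.

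Ctsl (ENSMUSG00000021477, chromosome 13 of GRCm38, 64359337 to 64370890), a cysteine protease and the member with the highest mean in Ctr, measured 17144, 17099.6 and 17014 normalized counts in Ctr and 11973, 12352 and 13141 in -SG libraries. It measured 23512, 23184 and 22161 in IR and 14364, 13692 and 14506 in IR -SG libraries. The IR libraries were the highest and the -SG libraries the lowest, with no overlap between any of the 4 groups. The differences from Ctr were -0.45 (SE 0.04, adjusted p = 2.69e-08) in -SG, 0.43 (SE 0.04, adjusted p = 1.07e-07) in IR and -0.27 (SE 0.04, adjusted p = 7.13e-06) in IR -SG cells. Ctsz, a carboxypeptidase, measured 3334, 3241 and 3389 normalized counts in Ctr, 2580.0, 2467 and 2920.0 in -SG, 3851, 4185 and 3938 in IR and 3014, 3029.8 and 2863 in IR -SG libraries. It was thus lower in all 6 libraries without serine and glycine than in all 6 with them. Ctsb, also a cysteine protease, fell by less in -SG cells (-0.12 (SE 0.03, adjusted p = 0.006)) and rose in IR cells (0.30 (SE 0.03, adjusted p = 2.02e-06)). In IR -SG cells Ctsb was above Ctr (0.09 (SE 0.03, adjusted p = 0.0296)), where Ctsl and Ctsz were below it (-0.27 and -0.16). This call of Ctsz was lost in 4 of 25 alternatives. That of Ctsb was lost in 10 of 25, for instance with DESeq2 (adjusted p = 0.143). Its fall in -SG cells was not past the threshold after quantile normalization (adjusted p = 0.0546) or without Ctr 1 and Ctr 3 together (adjusted p = 0.0849).

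Ctss, a protease of macrophages and other antigen-presenting cells, was below the filter. It measured 8.01, 0 and 13.2 normalized counts in Ctr, 1.33, 0 and 2.14 in -SG, 2.10, 0.937 and 0 in IR and 0.899, 0 and 0 in IR -SG libraries. The only values above 3 were in Ctr 1 and Ctr 3, the same libraries that held more Col3a1 and Lyz2. The part of other cells in these reads was not tested.

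**Figure D3:**
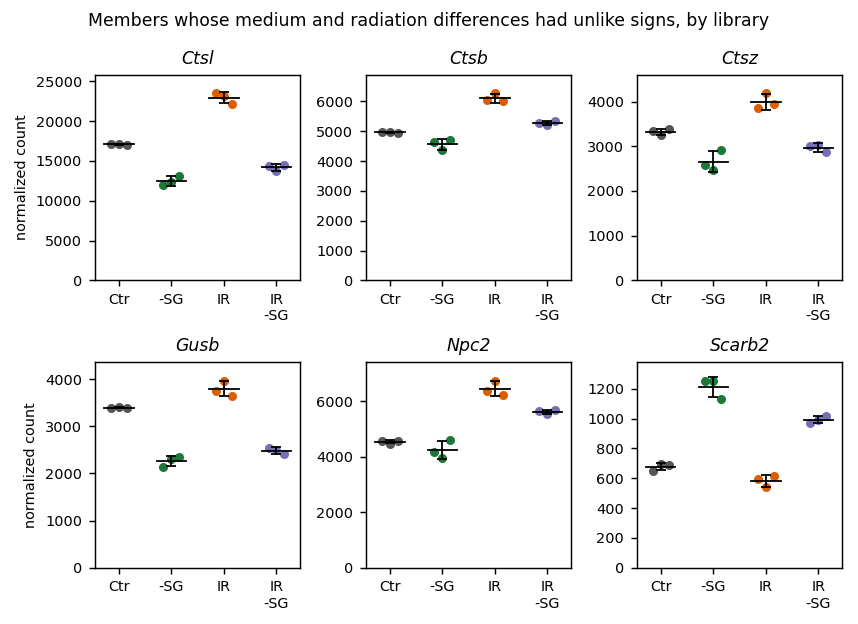
Normalized counts by library (points) of 6 members whose medium and radiation differences had unlike signs, with group means (lines) and SD (bars, n = 3), on linear axes from 0. Ctsl, Ctsb, Ctsz, Gusb and Npc2 were highest in IR, and Scarb2 was highest in -SG.

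Of the 8 glycosidases, 6 rose in -SG cells, 7 in IR cells and 6 in IR -SG cells, and Gusb fell in both groups without serine and glycine. Hexa, which acts in the breakdown of gangliosides, measured 95.2, 105 and 106 normalized counts in Ctr, 192, 159 and 203 in -SG, 173, 177 and 175 in IR and 233, 224 and 232 in IR -SG libraries. All treated libraries lay above Ctr and all IR -SG libraries above the rest. Its differences from Ctr were 0.84 (SE 0.09, adjusted p = 8.49e-07), 0.77 (SE 0.09, adjusted p = 3.58e-06) and 1.16 (SE 0.09, adjusted p = 1.01e-08). Neu1, a sialidase, rose by 0.71, 0.48 and 0.94, Glb1, the beta-galactosidase, by 0.39, 0.49 and 0.64, and Gaa, which breaks down glycogen, by 0.30, 0.47 and 0.66 in -SG, IR and IR -SG cells.

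Man2b1, an alpha-mannosidase, passed the threshold for radiation in both media, and for the medium neither with nor without radiation. It measured 1130.3, 1147 and 1152 normalized counts in Ctr and 1170.2, 1127 and 1158 in -SG libraries, against 1610.2, 1659 and 1642 in IR and 1637, 1568 and 1562 in IR -SG libraries. All 6 irradiated libraries lay above all 6 others. The radiation difference was 0.52 (SE 0.04, adjusted p = 1.38e-08) with serine and glycine and 0.46 (SE 0.04, adjusted p = 1.82e-07) without them, and the medium difference was 0.01 (SE 0.04, adjusted p = 0.832) without radiation and -0.04 (SE 0.04, adjusted p = 0.345) with it. Gusb, the beta-glucuronidase, went against most members, with 3399.8, 3407 and 3393 normalized counts in Ctr, 2134, 2306 and 2344 in -SG, 3761, 3973 and 3656 in IR and 2549.7, 2489 and 2413 in IR -SG libraries. The 6 libraries without serine and glycine lay below the 6 with them. Its differences were -0.59 (SE 0.04, adjusted p = 4.93e-09) in -SG and 0.16 (SE 0.04, adjusted p = 0.00461) in IR cells. Gla, the alpha-galactosidase, rose by 0.26 in -SG cells, a call that was lost without Ctr 1, Ctr 3 or -SG 6 (adjusted p = 0.0952, 0.112 and 0.134), and by 0.53 in IR cells. Naglu, which acts on heparan sulfate, rose in -SG cells (0.29 (SE 0.11, adjusted p = 0.0291)) with overlapping libraries, and not without -SG 6 (adjusted p = 0.133), -SG 4 (adjusted p = 0.0682), Ctr 2 (adjusted p = 0.0665) or Ctr 3 (adjusted p = 0.108).

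The 5 members of lipid breakdown and transport all rose after radiation in either medium (against Ctr), and 4 of them rose in -SG cells. Psap, the precursor of the saposins, which help enzymes to act on sphingolipids, measured 8264, 8012 and 8161 normalized counts in Ctr, 12268, 11871 and 12647 in -SG, 11122, 11267 and 11152 in IR and 14792, 14395 and 14504 in IR -SG libraries. No 2 groups overlapped, and IR -SG was the highest. The differences from Ctr were 0.59 (SE 0.03, adjusted p = 9.81e-11), 0.46 (SE 0.03, adjusted p = 4.91e-09) and 0.84 (SE 0.03, adjusted p = 8.26e-13). Lipa, the acid lipase, rose by 0.46, 0.24 and 0.74, and Ppt1, which removes palmitate from proteins, by 0.39, 0.17 and 0.63. The IR call of Lipa was lost without Ctr 1 (adjusted p = 0.0657) or IR 1 (adjusted p = 0.0641). Asah1, the acid ceramidase, rose by 0.33 in IR cells and by less in -SG cells (0.16 (SE 0.05, adjusted p = 0.0183)), where the call was lost without Ctr 1, -SG 4 or -SG 5 (adjusted p = 0.0612, 0.0738 and 0.0919). Npc2, which passes cholesterol to Npc1, rose with radiation by 0.51, and its difference in -SG cells was -0.10 (SE 0.05, adjusted p = 0.0732), or -0.16 without -SG 6 (adjusted p = 0.000306).

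Of the 5 members of the V-ATPase, the pump that acidifies the lysosome, 4 rose in -SG cells, 4 in IR cells and 5 in IR -SG cells. Atp6v0d1 (ENSMUSG00000013160, chromosome 8 of GRCm38, 105524465 to 105566047), the d subunit of its membrane sector, measured 565, 536 and 544 normalized counts in Ctr, 1012, 1007 and 1104 in -SG, 902, 894 and 864 in IR and 1288, 1293 and 1261 in IR -SG libraries. The groups did not overlap, and IR -SG was the highest. The differences from Ctr were 0.92 (SE 0.05, adjusted p = 8.27e-11), 0.69 (SE 0.05, adjusted p = 6.11e-09) and 1.22 (SE 0.05, adjusted p = 1.5e-12). The members that are subunits of the cytoplasmic sector, Atp6v1a, Atp6v1h and Atp6v1d, changed by less. Atp6v1a, the catalytic subunit, measured 0.05 (SE 0.05, adjusted p = 0.453) against Ctr in -SG cells, or 0.13 without -SG 6 (adjusted p = 0.00201), and rose by 0.28 in IR cells, whereas Atp6v1h rose by 0.37 in -SG cells and measured -0.04 (SE 0.05, adjusted p = 0.517) in IR cells. Atp6v1d rose by 0.47, 0.47 and 0.70, and the accessory protein Atp6ap1 by 0.38, 0.18 and 0.46.

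Of the 4 members that start the autophagosome, 3 rose in -SG cells, 4 in IR cells and 4 in IR -SG cells. Ulk1, the kinase at the head of the pathway, measured 996, 920.5 and 989 normalized counts in Ctr, 1431, 1449 and 1473 in -SG, 1172, 1149 and 1225 in IR and 1812, 1834 and 1729 in IR -SG libraries. No groups overlapped. The differences from Ctr were 0.58 (SE 0.04), 0.29 (SE 0.04) and 0.89 (SE 0.04), and 0.02 (SE 0.06, adjusted p = 0.903) for the interaction. Wipi1, which binds the lipid mark of the forming membrane, rose by 0.18, 0.30 and 0.57. Becn1 and Uvrag, of the lipid kinase complex that makes this mark, had smaller differences, of 0.22, 0.12 and 0.25 and of 0.12, 0.25 and 0.16, the first of Uvrag not past the threshold (adjusted p = 0.0629) except in 3 of 25 alternatives. The rise of Becn1 in IR cells (0.12 (SE 0.05, adjusted p = 0.0376)) was lost without Ctr 1, Ctr 2, IR 2 or IR 3 (adjusted p = 0.159, 0.0626, 0.0837 and 0.17).

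The Atg8 family proteins, which are bound to the autophagosome membrane and hold the receptors there, all rose in each treated group. Map1lc3b, which encodes LC3B, measured 918, 1033 and 990.4 normalized counts in Ctr, 1826, 1681 and 1785 in -SG, 1544, 1673 and 1589 in IR and 2028, 2001 and 2038 in IR -SG libraries. No groups overlapped, and IR -SG was 2.06-fold Ctr. The differences were 0.85 (SE 0.05, adjusted p = 3.46e-10), 0.71 (SE 0.05, adjusted p = 6.91e-09) and 1.04 (SE 0.05, adjusted p = 1.48e-11). Map1lc3a, which is less abundant in counts, rose by 0.76, 0.65 and 0.99. Gabarapl1 rose by 0.64 and 0.76 in the groups without serine and glycine, and by 0.19 in IR cells, a call lost without IR 1 (adjusted p = 0.0688).

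Sqstm1 (ENSMUSG00000015837, chromosome 11 of GRCm38, 50199366 to 50210827) encodes p62, a receptor that binds ubiquitin and LC3, and had the largest medium difference of the members. It measured 6333, 6281 and 6234 normalized counts in Ctr and 22782, 22001 and 24884 in -SG libraries. It measured 9758, 10145 and 9949 in IR and 22341, 22599 and 22318 in IR -SG libraries. The 6 libraries without serine and glycine lay above the 6 with them, and the IR libraries between these and Ctr. Against Ctr, Sqstm1 was 3.69-fold in -SG (1.88 (SE 0.04, adjusted p = 1.63e-15)), 1.58-fold in IR (0.66 (SE 0.04, adjusted p = 9.03e-10)) and 3.57-fold in IR -SG cells (1.84 (SE 0.04, adjusted p = 1.38e-15)). Between IR -SG and -SG cells its difference was -0.05 (SE 0.04, adjusted p = 0.319). Optn (ENSMUSG00000026672, chromosome 2 of GRCm38, 5020642 to 5064051), a receptor that acts in the removal of mitochondria and bacteria, measured 398, 391 and 376 normalized counts in Ctr, 772, 810.2 and 777 in -SG, 630.2, 702 and 633 in IR and 1149, 1102 and 1084 in IR -SG libraries. Here the 4 groups did not overlap, and IR -SG was highest, at 2.86-fold Ctr (1.51 (SE 0.05, adjusted p = 5.14e-13)). Nbr1, a relative of p62, rose by 0.60, 0.29 and 0.77. Bnip3l, a receptor on mitochondria, was not past the threshold in any comparison, with differences between -0.11 and 0.16, but passed it in IR cells in 6 of 26 alternatives (adjusted p between 0.0121 and 0.359 over all of them), namely total scaling, quantile normalization, only the groups compared, and without -SG 5, -SG 6 or IR 2.

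The medium could be compared in separate sets of libraries, as -SG against Ctr and as IR -SG against IR. In IR -SG against IR, 33 members rose and 5 fell, where 28.9% of all genes rose and 28.1% fell. Of the 47 members, 33 rose in both comparisons, 4 fell in both, and 4 rose only without radiation. The 4 that fell in both were Ctsb, Ctsl, Ctsz and Gusb, with differences of -0.12 and -0.21, -0.45 and -0.69, -0.33 and -0.43, and -0.59 and -0.61. The 4 that rose only without radiation were Tfeb, Gla, Naglu and Asah1. Npc2 passed the threshold for a fall only in irradiated cells (-0.20 (SE 0.05, adjusted p = 0.00179)). Without -SG 6 it also did so in unirradiated cells (-0.16, adjusted p = 0.000306). Scarb2, a protein of the lysosomal membrane, rose by 0.84 (SE 0.06) and 0.77 (SE 0.06).

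Radiation too could be compared in separate sets of libraries, as IR against Ctr and as IR -SG against -SG. In IR -SG against -SG, 26 members rose and 3 fell, where 23.8% of all genes rose and 19.3% fell. Of the 47 members, 26 rose in both, 12 rose only with serine and glycine, and Scarb2 fell in both. The median difference was 0.29 with serine and glycine and 0.18 without them. Scarb2 measured 651, 694 and 691 normalized counts in Ctr, 1255, 1249.9 and 1132 in -SG, 594, 539.6 and 617 in IR and 971, 989 and 1018 in IR -SG libraries. It was highest in -SG and lowest in IR, with no overlap between groups. It fell with radiation in both media (-0.22 (SE 0.06, adjusted p = 0.00437) and -0.29 (SE 0.06, adjusted p = 0.000831)), while Ctsb, Ctsl, Ctsz and Gusb, which fell without serine and glycine, rose with radiation in both. In cells without serine and glycine these 4 rises were 0.21, 0.18, 0.16 and 0.14. Those of Ctsz and Gusb were lost without -SG 4 (adjusted p = 0.0658 and 0.0858) or IR -SG 4 (adjusted p = 0.0646 and 0.0702), and that of Ctsz also without -SG 5 or IR -SG 5 (adjusted p = 0.092 and 0.0701). Without -SG 6, 32 members rose and 3 fell, where 47% of all tested genes were past the threshold, against 43.1% in the main fit.

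Whether the radiation difference depended on the medium was tested by the interaction. It was below 0 in 41 of 47 members, where 51.7% of all tested genes were below 0. It was past the threshold in 12 members, all below 0, where 7.17% of all genes fell and 4.2% rose. The interaction subtracts the -SG and IR differences, which share the Ctr libraries, and the members were chosen with earlier results known. These counts are thus no test of the pathway either. In Sqstm1 the radiation difference was 0.66 with serine and glycine and -0.05 without, an interaction of -0.71 (SE 0.05, adjusted p = 4.14e-07). In Gpnmb these were 1.74 and 0.84, an interaction of -0.90 (SE 0.14, adjusted p = 0.000749). In Map1lc3b they were 0.71 and 0.20, with -0.51 (SE 0.07, adjusted p = 0.00016), and in Ctsd 0.41 and 0.05, with -0.37 (SE 0.05, adjusted p = 0.000329). These members were raised by each treatment alone, and by less than the sum of the log2 differences after both. The calls of Hexa, Map1lc3a and Optn were the least firm and were lost in 13, 14 and 12 of the alternatives. Without -SG 6, 15 members were past the threshold, where 17.6% of all tested genes were, against 11.4% in the main fit.

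**Figure D4:**
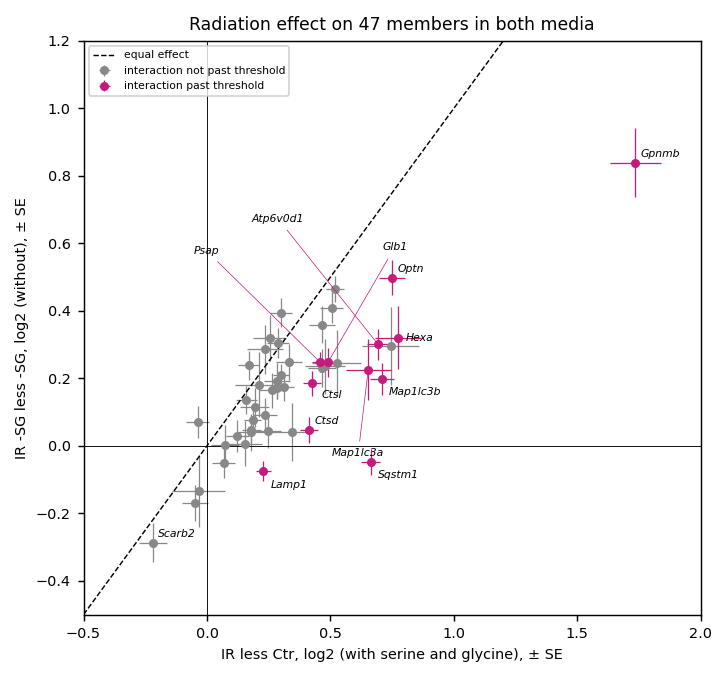
Radiation difference of the 47 tested members with serine and glycine (IR less Ctr, horizontal) and without them (IR -SG less -SG, vertical), on the log2 scale with SE from limma, and the line of equal difference (dashed). The 12 members whose interaction was past the threshold (magenta) all lie below the line, Sqstm1 and Gpnmb furthest from it, and Scarb2 is below 0 on both axes.

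Other genes of the same pathways were taken from 7 lists of 168 genes, of which 156 were tested. Counts of these lists are to be set against the shares of all tested genes. These were 30% that rose and 28.6% that fell in -SG, 28.9% and 24.9% in IR, and 37.2% and 32.5% in IR -SG cells. Of 34 other lysosomal hydrolases, starvation alone had 20 that rose and 7 that fell, radiation alone 23 that rose, and both together 28 and 2. Naaa, which breaks down acylethanolamides, rose by 1.49, 1.08 and 2.01, and the hyaluronidase Hyal1 by 1.26, 1.21 and 1.88. Arsa, which removes sulfate from sulfatides, and Ctsw, a cathepsin of lymphocytes, fell in -SG cells (-0.47 and -0.80) and rose in IR cells (0.46 and 1.19), like the members Ctsl, Ctsz and Gusb. Gm2a, the activator that presents gangliosides to Hexa, rose by 0.59, 1.11 and 1.12.

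Of 24 other lysosomal membrane proteins, starvation raised 11 and lowered 5, radiation 12 and 3, and both together 14 and 3. The cystine exporter Ctns rose by 1.22, 0.86 and 1.72, and Dram1 fell in -SG (-1.04) and IR -SG cells (-0.98). Cd68, a lysosomal glycoprotein most abundant in macrophages, fell in -SG cells (-0.60) and rose in IR cells (0.59), in the direction of the summed leukocyte markers, whose part in this was not tested. Of 16 other V-ATPase subunits, 10 rose in -SG cells, where 1 fell, and 11 in each irradiated group. Atp6ap2 rose by 0.77 and Atp6v0b by 0.75 in -SG cells. Atp6v1c2, an isoform of the C subunit, fell in -SG cells (-1.56) and rose in IR cells (1.09). Atp6v0a4, an isoform known from the kidney, measured 2.67, 3.19 and 1.76 normalized counts in Ctr and 16.8, 18.7 and 19.5 in IR libraries, few reads in each.

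Of 10 genes that sort hydrolases by mannose 6-phosphate and related routes, starvation had 4 that rose and 3 that fell, and radiation 2 of each. Sort1, a sorting receptor, rose by 1.34 and 1.13 in the irradiated groups with and without serine and glycine, whereas its difference in -SG cells was 0.00 (SE 0.13, adjusted p = 0.983). Of 36 other genes of the core autophagy machinery, 18 rose and 5 fell without serine and glycine, 14 and 2 did so after radiation, and 19 and 6 after both. Atg14, of the lipid kinase complex, rose by 0.92 and the Atg8 family protein Gabarap by 0.89 in -SG cells, while Tmem41b and Atg2b fell (-0.35 and -0.29). Zfyve1, which marks the site where autophagosomes form, rose by 0.62, 0.72 and 1.42.

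Of 12 other autophagy receptors, 6, 3 and 8 rose in -SG, IR and IR -SG cells, and 2 fell in each. The share that rose in IR cells was near that of all tested genes (28.9%). Stbd1, a receptor for glycogen, rose by 1.44 in -SG cells, with a difference of -0.07 (SE 0.06, adjusted p = 0.365) in IR cells, and Calcoco1 by 1.27 and 0.75. Bnip3, a mitochondrial receptor and relative of Bnip3l, rose by 1.05 in -SG cells and fell in IR cells (-0.66). Of 24 genes of the mTORC1 machinery on the lysosome, 10 rose against 3 that fell without serine and glycine, and 4 against 5 after radiation. After radiation 28.9% of all tested genes rose and 24.9% fell, both larger shares than in this list. Mitf, of the same family as Tfeb, rose by 0.49, 1.04 and 0.94. Castor1, a sensor of arginine, fell in -SG cells (-0.40) and rose in IR cells (0.32), and Mios, of the complex that relays amino acids to the Rag GTPases, fell in all 3 treated groups (-0.35, -0.39 and -0.71).

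**Figure D5:**
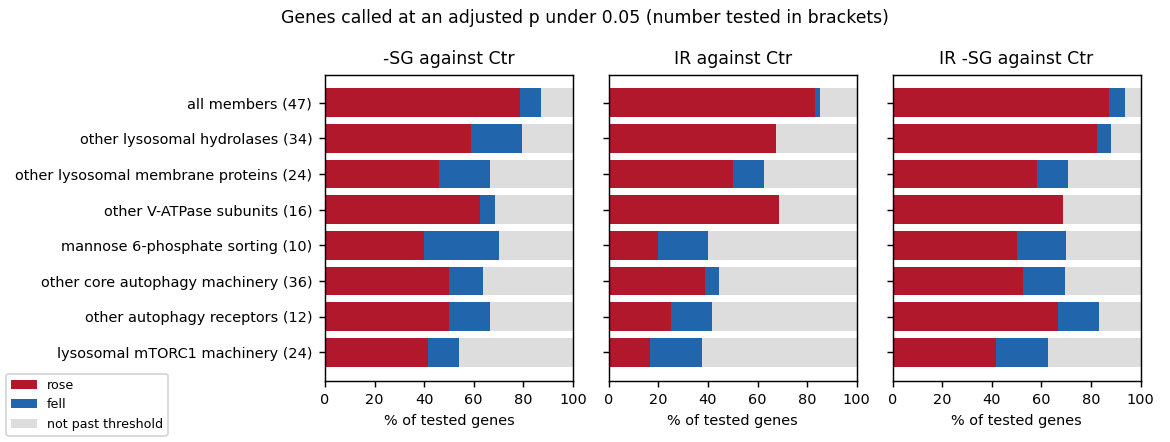
Share of tested genes that rose (red), fell (blue) or did not pass an adjusted p of 0.05 (grey) by limma, for the 47 members and the 7 lists of other pathway genes (number tested in brackets), in the 3 comparisons with Ctr. The share of rises was larger for the members (37 of 47 in -SG) than for any of the other lists (20 of 34 hydrolases and 10 of 16 V-ATPase subunits in -SG), as counts with no test of the difference.

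On the scale of normalized counts per kb of exon, which allows levels of different genes to be set side by side, the members spanned 14.9 in Gpnmb to 4205 in Lamp1 among those tested in Ctr. After Lamp1 came Psap (2968), Ctsl (2633), Ctsz (2305) and Sqstm1 (1872). In -SG cells Sqstm1 was the first, at 6920.0, before Lamp1 (6089) and Psap (4469), and Ctsd (2130.0) lay above Ctsl (1925) and Ctsz (1843). In IR cells Lamp1 (4926) was again the first, then Psap (4074) and Ctsl (3537). In IR -SG cells the order of the first 3 was Sqstm1 (6680.0), Lamp1 (5778) and Psap (5307). The exon length counts all annotated exons of a gene once and is not the length of one transcript.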

How the data were processed

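RNA was extracted from 4T1 cells, ribosomal RNA removed and stranded libraries made from total RNA. Per the labels and methods, the authors used FastQC, HISAT2, TopHat, featureCounts on GRCm38 and DESeq2 in R 3.3.1, with the strand setting not given in the sources used here. A value of the deposited signal is a normalized count, reads divided by 1 size factor per library. Genes were named with GENCODE M21 (20527 of 20587 IDs). Here log2(normalized count + 1), which understates changes of low genes, was tested with limma 3.58.1 in R 4.3.3 (all 4 groups fitted together with an intensity trend; degrees of freedom 8 residual, 7.93 prior) for 11663 protein-coding genes, with Benjamini-Hochberg adjustment over all of them and a threshold of 0.05. Fold changes are on this scale. Alternatives were pseudocounts of 0.5 and 8, no filter, a mean minimum of 100, TMM, total and quantile scaling, no trend, only the groups compared, all genes, edgeR 4.0.16 and DESeq2 1.42.0 on recovered reads, each library left out, and the replicate number as a block. Every member is named, and of each other list up to 4 called genes of largest change and up to 2 against its direction were eligible. The members and lists were chosen with earlier results of these data known. The steps were tested on simulated data. Promoters are from RefSeq. Some genes of the lists are not reported here.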

Additional observations from a re-analysis of the deposited data

Results flagged for a closer look

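The radiation difference depended on the medium, by the interaction in the limma fit of all tested genes at an adjusted p under 0.05, in 12 members. Negative values mean that the log2 difference between irradiated and unirradiated cells was smaller without serine and glycine than with them. The interaction was -0.90 in Gpnmb, -0.71 in Sqstm1, -0.51 in Map1lc3b, -0.45 in Hexa, -0.43 in Map1lc3a, -0.39 in Atp6v0d1, -0.37 in Ctsd, -0.30 in Lamp1, -0.25 in Optn, -0.24 in Glb1, -0.24 in Ctsl and -0.21 in Psap. The calls of Lamp1, Gpnmb, Ctsd, Psap, Atp6v0d1, Map1lc3b and Sqstm1 held in every alternative that was run.

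The same test passed in 25 of the 156 other pathway genes tested, most of which are given here, and in 11.4% of all tested genes. Among hydrolases and their helpers it was -0.58 in Gm2a, -0.57 in Naaa, -0.40 in Ctsw, -0.29 in Lgmn and -0.23 in Scpep1, and above 0 in Siae (0.26). Among membrane proteins and pump subunits it was -0.22 in Mfsd1, -0.17 in Laptm4a, -2.11 in Atp6v0a4, which had few reads, -0.35 in Atp6v0e, -0.34 in Atp6v0c and -0.28 in Atp6v0b. In the autophagy machinery it was -0.71 in Wdr45, -0.41 in Tecpr1, -0.37 in Gabarap, -0.34 in Atg12, -0.33 in Atg101 and -0.25 in Atg2a, and above 0 in Stx17 (0.29). Among receptors it was -0.55 in Calcoco1 and -0.46 in Stbd1, and above 0 in Bnip3 (0.37), and in the Tfeb relative Mitf it was -0.58.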

How the results depend on the processing

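No call of a member changed its direction under any alternative, and of the calls in the 6 comparisons these held in every one: 36 of 41 in -SG and 33 of 40 in IR against Ctr, 39 of 44 in IR -SG against Ctr, 22 of 29 in IR -SG against -SG, 37 of 38 in IR -SG against IR and 7 of 12 in the interaction. Scaling to the total moved the median log2 difference of the members to 0.43 for -SG, 0.32 for IR and 0.65 for IR -SG, and DESeq2 moved the last to 0.57. Quantile normalization gave 2 members that fell in IR cells, and a fit of only the groups compared gave 1 that fell between -SG and IR -SG. Without any 1 library the median in IR -SG cells was 0.57 to 0.62 and that of the interaction -0.15 to -0.11. In these fits 9 to 15 members passed for the interaction, where 8.12 to 17.6% of all tested genes did. Without Ctr 1 and Ctr 3 together, added after seeing the data, with Ctr 2 assumed to vary like the other groups, the median was 0.42 for -SG and 0.55 for IR -SG. Members near 100 normalized counts, such as Tfeb, Hexa, Gla and Naglu, were the least precise, and Rragd and Ctss had too few reads.

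Same-numbered libraries deviated together weakly at most. Across genes, the correlation of their deviations was 0.025 to 0.068 between Ctr and IR. There each Ctr library correlated best with the IR library of its own number. Between -SG and IR -SG the correlation was -0.094 to 4.9e-05, and no -SG library correlated best with its own number. With the replicate number as a block, 40 members were called in IR against Ctr (39 rose, 1 fell), 27 in IR -SG against -SG (25 rose, 2 fell) and 9 for the interaction. Of all tested genes, 51.7%, 39.8% and 8.45% were called in these fits.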
